A study of Mus musculus with 18 samples.

Results

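Vascular endothelial growth factors (VEGFs), angiopoietins and their receptors were followed across 3 adipose preparations as 10 named genes out of the 52093 gene symbols in the RNA-seq tables. The 5 ligand genes were Vegfa, Vegfb, Vegfc, Angpt1 and Angpt2, and the 5 receptor genes were Flt1, Kdr, Flt4, Tek and Tie1. Genes were taken by symbol, and where a symbol had several rows the row with the highest mean RPKM (reads scaled to transcript length and to the reads of the library) over the 18 libraries was used. All 10 genes were found, and all 10 had the mean of at least 10 reads that was required for a test in each comparison.

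RNA was sequenced from inguinal white (iWAT) adipocytes, epididymal white (eWAT) adipocytes and brown adipose tissue (BAT), with 6 libraries for each. All samples came from male wild type mice of the C57BL/6 strain fed a high-fat diet (HFD), with 12 weeks of feeding for every group; an age is given in the study's supplement and not in the labels. A treatment field in the labels names regular chow, against the titles and the design text, and the samples were treated here as HFD. The substrain is C57BL/6J in the extraction text and C57BL/6NTac in the supplement. The white adipocytes were the floating cells left after collagenase digestion, whereas BAT was whole frozen tissue, although its cell type field reads BAT adipocytes. Libraries carry the numbers 1, 2, 3, 4, 5 and 16 in both white depots and 1, 2, 5, 16, 17 and 18 in BAT. These may be animal numbers, but the labels do not state that the libraries came from separate animals, so p-values measure the spread between these libraries.

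VEGF-A, the main growth signal for blood vessels, is secreted by fat cells and other cells and acts on the endothelium through the tyrosine kinase receptor VEGFR2 (Kdr), while VEGFR1 (Flt1) binds VEGF-A and VEGF-B and can hold VEGF-A away from VEGFR2. VEGF-C acts through VEGFR3 (Flt4), best known from lymphatic vessels. Angiopoietin-1 activates the endothelial receptor Tie2 (Tek) and stabilizes vessels, angiopoietin-2 can oppose it and is released largely by endothelial cells, and Tie1 is a partner receptor that modulates Tie2.

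Reads on the transcript rows numbered 24655056 to 42518483 per library. Cell type markers checked the labels and the other cells a preparation could hold. Ucp1, the uncoupling protein of brown fat cells, was at 1858 ± 237.0 RPKM in BAT, 2.26 ± 0.592 in iWAT adipocytes and 0.261 ± 0.0844 in eWAT adipocytes (SD, n = 6). Summed RPKM of 7 adipocyte markers was 11830 to 16510 in iWAT adipocytes, 2631 to 8136 in eWAT adipocytes, against 5569 to 6815 in BAT. Endothelial RNA was present in all libraries. The summed RPKM of 13 endothelial markers was 239.5 to 685.5 in iWAT adipocytes, 88.4 to 205.8 in eWAT adipocytes, against 110.6 to 238.5 in BAT, with none of the 13 at or under 3 reads throughout a group. Library 5 and then library 1 had the highest sums among iWAT adipocytes, and library 16 had the lowest. In bulk samples such as these, fewer cells of a type and less RNA per cell cannot be told apart. Macrophage markers summed to 2502 to 4050 RPKM in eWAT adipocytes, 444.7 to 874.8 in iWAT adipocytes and 24.6 to 49.4 in BAT.

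The scaling between libraries matters for the 2 comparisons with BAT. With TMM, the scaling used here, all genes tested had a median log2 fold change of 0.01 for iWAT adipocytes over BAT and -0.02 for eWAT adipocytes over BAT. Without it these medians were 0.87 and 0.89, and the genes called higher and lower went from 7528 and 7336 to 13703 and 3054 for iWAT adipocytes and from 8243 and 8318 to 12965 and 4061 for eWAT adipocytes. RPKM carries no TMM scaling, so a gene can have the higher RPKM in white adipocytes and still lie below BAT in the fitted fold change. BAT was sequenced in lanes of its own and was not digested with collagenase, so tissue, lane and preparation cannot be told apart in these 2 comparisons.

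The ligands were led by Vegfa and Vegfb in every preparation. Both were highest in BAT, lower in iWAT adipocytes and lowest in eWAT adipocytes. Angpt2 went the other way against BAT, at 4.01 ± 1.86 RPKM in iWAT adipocytes and 4.46 ± 1.02 in eWAT adipocytes against 0.555 ± 0.155 in BAT (SD, n = 6). The 5 receptors were higher in iWAT than in eWAT adipocytes by 2.67-fold (Flt1) to 4.32-fold (Kdr), and higher in BAT than in eWAT adipocytes by 2.89-fold (Flt1) to 5.50-fold (Kdr).

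By edgeR's quasi-likelihood test with Benjamini-Hochberg adjustment over all genes, 9 of the 10 genes were higher in iWAT than in eWAT adipocytes and none was lower, where 34.1% of all genes tested were higher in iWAT and 34.5% in eWAT adipocytes (68.6% in either direction). Against BAT, 1 gene was higher and 2 were lower in iWAT adipocytes, and 7 did not pass (8 higher and 2 lower without TMM scaling), where 38.1% of all genes were higher in iWAT adipocytes and 37.2% in BAT (75.3% in all). Between eWAT adipocytes and BAT all 10 genes passed, 1 higher in eWAT adipocytes and 9 in BAT, where 41.1% and 41.4% of all genes did (82.5% in all). The 3 comparisons share samples in pairs, so their calls are not independent of each other. RPKM of the 2 groups did not overlap for 6, 3 and 8 of the 10 genes in these comparisons, beside 44.0%, 65.3% and 68.4% of all genes.

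**Figure D1:**
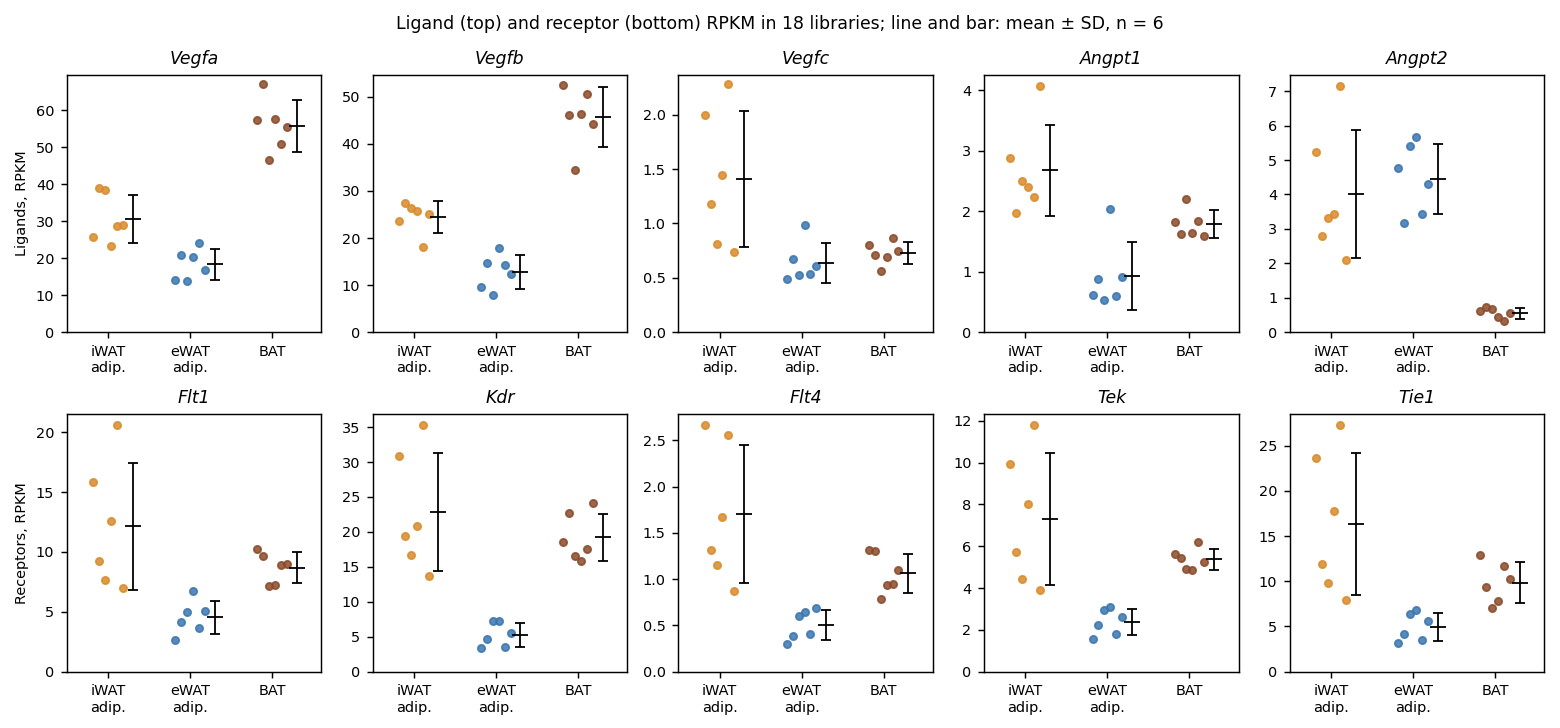
RPKM of the 5 ligand genes (top row) and the 5 receptor genes (bottom row) in each of the 18 libraries, with the mean and SD of 6 libraries beside the points and each vertical axis starting at 0. Vegfa and Vegfb stand highest in BAT, Angpt2 is low in all 6 BAT libraries, and the receptors spread most widely in iWAT adipocytes; RPKM carries no TMM scaling.

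Vegfa (mm9 chromosome 17, 46153942 to 46169326, minus strand, 8 exons) had the highest mean RPKM of the 10 genes in each of the 3 preparations. It ranged from 23.3 to 38.9 RPKM in iWAT adipocytes (median 28.8), from 13.97 to 24.2 in eWAT adipocytes (median 18.5) and from 46.6 to 67.0 in BAT (median 56.3). All 6 BAT libraries lay above all 12 white adipocyte libraries, whereas iWAT and eWAT adipocytes overlapped, through library 4 of iWAT and library 5 of eWAT adipocytes. The edgeR log2 fold change was 0.75 ± 0.17 (SE) for iWAT over eWAT adipocytes (adjusted p = 0.0018), -1.47 ± 0.15 for iWAT adipocytes over BAT (1.9e-07) and -2.20 ± 0.15 for eWAT adipocytes over BAT (1.8e-09). A second, plus-strand row of the same symbol lies within the Vegfa row, and without strand the reads of the 2 rows cannot be told apart.

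Vegfb (chromosome 19, 7056962 to 7062141, minus strand, 7 exons), a VEGF that binds VEGFR1, followed the same order. Its lowest, median and highest RPKM were 18.1, 25.5 and 27.4 in iWAT adipocytes, 7.94, 13.3 and 17.8 in eWAT adipocytes, and 34.4, 46.2 and 52.5 in BAT. No library of one group reached into another. The log2 fold changes were 0.94 ± 0.18, -1.51 ± 0.12 and -2.43 ± 0.17 (SE) for iWAT over eWAT adipocytes, iWAT adipocytes over BAT and eWAT adipocytes over BAT, with edgeR adjusted p of 0.00049, 2.1e-08 and 3.2e-09.

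Vegfc (chromosome 8, 55162886 to 55272450, plus strand, 8 exons), a ligand of VEGFR3, was the lowest of the 5 ligand genes in both white preparations. In iWAT adipocytes it ran from 0.739 to 2.28 RPKM (median 1.31), in eWAT adipocytes from 0.494 to 0.983 (median 0.571) and in BAT from 0.568 to 0.869 (median 0.728). The 2 highest values were those of libraries 5 and 1 of iWAT adipocytes, which also held the most endothelial RNA; its part in the Vegfc result was not tested. Vegfc was higher in iWAT than in eWAT adipocytes by 1.15 ± 0.27 on the log2 scale (SE, edgeR adjusted p = 0.0021), and lower in eWAT adipocytes than in BAT (log2 fold change -0.80 ± 0.17, adjusted p = 0.00046), although without TMM scaling the latter turned to 0.10 with an adjusted p of 0.596. Against BAT, iWAT adipocytes did not pass (0.32 ± 0.23, adjusted p = 0.22), and without TMM scaling the value was 1.19 (adjusted p = 0.000293).

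The angiopoietins moved apart from each other. Angpt1 (chromosome 15, 42256217 to 42508523, minus strand, 10 exons), the Tie2 agonist, measured 1.97 to 4.08 RPKM in iWAT adipocytes (median 2.46), 0.531 to 2.04 in eWAT adipocytes (median 0.748) and 1.59 to 2.21 in BAT (median 1.73). Library 16, with the least endothelial RNA of the iWAT adipocytes, had the highest Angpt1 there, and in eWAT adipocytes library 4 stood apart from the other 5, which reached 0.908. The edgeR log2 fold change was 1.55 ± 0.31 (SE) for iWAT over eWAT adipocytes (adjusted p = 0.00064) and -1.55 ± 0.27 for eWAT adipocytes over BAT (7.6e-05). Between iWAT adipocytes and BAT it was -0.02 ± 0.16 (adjusted p = 0.91), and 0.84 without TMM scaling (9.87e-05).

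Angpt2 (chromosome 8, 18690263 to 18741562, minus strand, 10 exons), the context-dependent antagonist, was detected in BAT with only 37 to 106 reads per library. Its lowest, median and highest RPKM were 2.09, 3.38 and 7.14 in iWAT adipocytes, 3.17, 4.54 and 5.66 in eWAT adipocytes, and 0.321, 0.582 and 0.744 in BAT. All 12 white adipocyte libraries lay above all 6 BAT libraries. Libraries 5 and 1 were again highest in iWAT adipocytes. The log2 fold change was 2.23 ± 0.26 (SE) for iWAT adipocytes over BAT (edgeR adjusted p = 1.5e-06) and 2.42 ± 0.20 for eWAT adipocytes over BAT (1.6e-08). Angpt2 was the gene of the 10 that did not differ by the test between the white depots (-0.16 ± 0.25, adjusted p = 0.58). Without libraries 1 and 5 of iWAT adipocytes, a choice made after the data were seen, the value was -0.55 (adjusted p = 0.021). The Angpt1 row shares positions with 6 rows of other symbols and with a second, plus-strand row of its own symbol. The Angpt2 row shares positions with the opposite-strand gene Mcph1 and a clone row. Counts of both genes are uncertain where reads fall on shared bases.

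The receptors spread most widely among iWAT adipocytes. In iWAT adipocytes, the highest library exceeded the lowest 2.59-fold for Kdr to 3.46-fold for Tie1, against 1.28-fold (Tek) to 1.83-fold (Tie1) in BAT. Summed over the 5 receptors, RPKM was 60.3 ± 25.4 in iWAT adipocytes, 17.6 ± 5.34 in eWAT adipocytes, against 44.2 ± 6.12 in BAT (SD, n = 6), while the 5 ligands summed to 63.2 ± 6.88, 37.2 ± 7.46 and 104.5 ± 11.1. Library 5 of iWAT adipocytes was highest for Flt1, Kdr, Tek and Tie1 and library 1 for Flt4, and library 16 was lowest for all 5. The summed endothelial markers of libraries 5, 1 and 16 were 685.5, 551.8 and 239.5 RPKM.

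Kdr (chromosome 5, 76328852 to 76374485, minus strand, 29 exons), the main signalling receptor for VEGF-A, was the most abundant receptor. It measured 13.7 to 35.3 RPKM in iWAT adipocytes (median 20.2), 3.45 to 7.24 in eWAT adipocytes (median 5.10) and 15.8 to 24.1 in BAT (median 18.1). All eWAT adipocyte libraries lay below all others, and iWAT adipocytes and BAT overlapped. Kdr showed the largest receptor difference between the white depots, 2.11 ± 0.25 on the log2 scale (SE, edgeR adjusted p = 1.1e-05), and between eWAT adipocytes and BAT, -2.46 ± 0.19 (8.6e-09). For iWAT adipocytes over BAT it was -0.37 ± 0.18 (adjusted p = 0.073), and it passed without library 1 (-0.47, 0.0247) or library 5 (-0.52, 0.00697) of iWAT adipocytes or with DESeq2 (-0.38, 0.0444), whereas without TMM scaling the sign turned (0.50, 0.0334).

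Flt1 (chromosome 5, 148373180 to 148537588, minus strand, 33 exons), the VEGF-A and VEGF-B receptor with weak signalling of its own, ran from 6.98 to 20.6 RPKM in iWAT adipocytes (median 10.9), from 2.63 to 6.71 in eWAT adipocytes (median 4.58) and from 7.16 to 10.3 in BAT (median 8.96). The eWAT adipocytes again lay below the other 2 groups with no overlap. Its edgeR log2 fold changes were 1.41 ± 0.27 for iWAT over eWAT adipocytes (SE, adjusted p = 0.00046) and -1.53 ± 0.17 for eWAT adipocytes over BAT (6.1e-07).

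Flt4 (chromosome 11, 49422765 to 49466241, plus strand, 29 exons), the VEGF-C receptor, was the lowest receptor everywhere, at 0.868 to 2.67 RPKM in iWAT adipocytes (median 1.49), 0.304 to 0.692 in eWAT adipocytes (median 0.505) and 0.790 to 1.31 in BAT (median 1.02). No eWAT adipocyte library reached either other group. Flt4 was higher in iWAT than in eWAT adipocytes by 1.75 ± 0.28 on the log2 scale (SE, edgeR adjusted p = 0.00013), and its eWAT adipocyte over BAT value was -1.66 ± 0.19 (8.4e-07). Prox1, the defining transcription factor of lymphatic endothelium, had 3 to 20 reads per library, too few for a test. Of the other 4 lymphatic markers, 1 was higher and 3 were lower in iWAT than in eWAT adipocytes. Summed RPKM of all 5 markers was 1.89 to 5.00 in iWAT adipocytes, 15.2 to 21.0 in eWAT adipocytes, against 1.45 to 2.29 in BAT. Pdpn, which cells other than lymphatic endothelium also express, made up most of the eWAT adipocyte sum at 16.6 ± 2.12 RPKM.

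Tek (chromosome 4, 94405980 to 94541667, plus strand, 23 exons), the angiopoietin receptor Tie2, measured 3.92 to 11.8 RPKM in iWAT adipocytes (median 6.86), 1.55 to 3.08 in eWAT adipocytes (median 2.42) and 4.85 to 6.21 in BAT (median 5.33). Tie1 (chromosome 4, 118143793 to 118162666, minus strand, 23 exons), its partner, measured 7.89 to 27.3, 3.14 to 6.87 and 7.04 to 12.9 RPKM in the same order, with medians of 14.8, 4.94 and 9.81. For both genes the eWAT adipocytes lay below the other 2 groups with no overlap, while iWAT adipocytes and BAT overlapped. Log2 fold changes of iWAT over eWAT adipocytes were 1.62 ± 0.26 for Tek and 1.71 ± 0.30 for Tie1 (SE, edgeR adjusted p = 0.00013 and 0.00023). Those of eWAT adipocytes over BAT were -1.78 ± 0.14 and -1.57 ± 0.19 (adjusted p = 1.6e-08 and 1.4e-06). The Tek row shares positions with a clone row of the same strand, AK085797, so its counts are uncertain where reads fall on shared bases.

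Between iWAT adipocytes and BAT, 0 of 5 receptors passed edgeR's test with TMM scaling and 0 had an unadjusted p under 0.05, while DESeq2 called 1 (Kdr) and limma on RPKM 1 (Flt4). The values for Flt1, Flt4, Tek and Tie1 were -0.14 ± 0.20, 0.06 ± 0.22, -0.19 ± 0.20 and 0.11 ± 0.24 (log2, SE), with edgeR adjusted p of 0.53, 0.82, 0.42 and 0.69. Without TMM scaling all 5 receptors passed as higher in iWAT adipocytes, with values of 0.50 (Kdr) to 0.98 (Tie1), against a median of 0.87 over all genes in that fit. Libraries 1 and 5 of iWAT adipocytes were also left out, a choice made after the data were seen. Flt1, Kdr and Tek then passed as lower in iWAT adipocytes than in BAT. In that fit 6 of the 10 genes passed, where 14517 of 19643 genes did. Libraries 1 and 5 had the highest levels of all 5 receptors among iWAT adipocytes. Leaving them out had to lower the receptor values there, so these calls follow in part from the choice. The order of these 2 preparations for the receptors thus depends on the scaling, whereas both exceeded eWAT adipocytes with and without it.

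**Figure D2:**
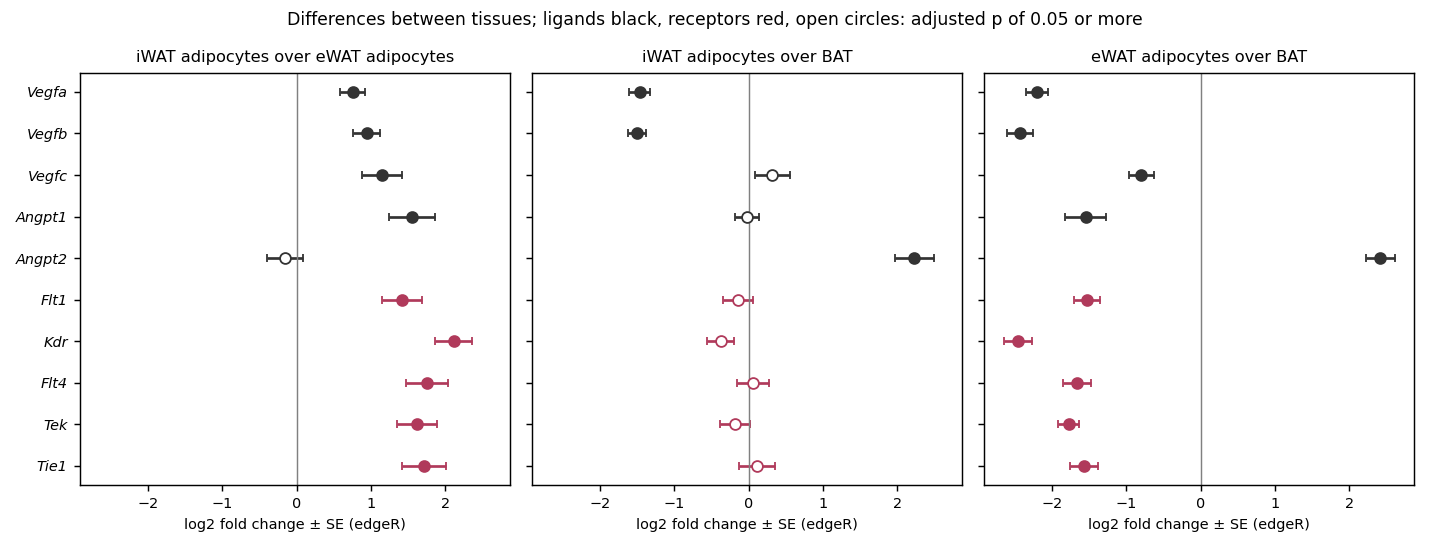
Log2 fold change with its SE from edgeR for the 10 genes in the 3 comparisons, ligands in black and receptors in red, with open circles where the adjusted p was 0.05 or more. For iWAT adipocytes over BAT, 7 of 10 circles are open and Angpt2 lies at 2.23 on the side of the white adipocytes.

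The windows of 250 bases upstream of Flt1, Kdr and Tek are printed to set the receptor window with the most matches to a motif beside those of the main receptors of VEGF-A and of the angiopoietins, which have none. They are chr5:148537589-148537838 and chr5:76374486-76374735 on the minus strand and chr4:94405730-94405979 on the plus strand of mm9, given 5′ to 3′. Capitals mark the letters AGGAAG or, on the other strand, CTTCCT. These are a fixed spelling of a core that ETS transcription factors bind and that is common in endothelial genes. Other spellings were not counted. Of 20663 such windows upstream of gene rows, 27.9% hold these letters.
Flt1: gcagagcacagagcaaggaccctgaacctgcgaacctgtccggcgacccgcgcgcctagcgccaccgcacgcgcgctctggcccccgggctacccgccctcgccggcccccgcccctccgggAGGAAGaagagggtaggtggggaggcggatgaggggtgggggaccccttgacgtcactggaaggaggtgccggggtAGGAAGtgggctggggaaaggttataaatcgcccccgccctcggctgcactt
Kdr: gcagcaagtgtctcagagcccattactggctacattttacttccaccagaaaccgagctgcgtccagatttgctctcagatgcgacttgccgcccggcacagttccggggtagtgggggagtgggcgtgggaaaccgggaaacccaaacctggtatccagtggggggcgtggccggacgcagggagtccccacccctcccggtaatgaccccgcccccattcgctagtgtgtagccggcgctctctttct
Tek: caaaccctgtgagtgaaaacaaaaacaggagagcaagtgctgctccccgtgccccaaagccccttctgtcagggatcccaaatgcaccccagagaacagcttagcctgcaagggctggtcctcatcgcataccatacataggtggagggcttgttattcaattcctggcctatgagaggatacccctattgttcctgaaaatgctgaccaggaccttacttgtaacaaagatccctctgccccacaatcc
Flt1 holds the letters 2 times, Kdr and Tek not at all, and Flt4 and Tie1 once each. Thus 3 of the 5 receptor windows have them. A match of letters does not show a bound site, and its absence does not show that a window lacks such a core. All 5 receptors, with or without the letters, had the same direction in both comparisons with eWAT adipocytes. G and C made up 70.4% of the Flt1 window, 61.6% of the Kdr window and 51.2% of the Tek window.

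The lane of sequencing was examined within the white depots. Lane 1 held 2 iWAT and 4 eWAT adipocyte libraries and lane 2 held 4 and 2. Within lane 1, 6 of the 10 genes passed as higher in iWAT adipocytes (the 5 receptors and Vegfb), and Vegfa, Vegfc and Angpt1 had values of 0.72, 1.05 and 1.43 with edgeR adjusted p of 0.062, 0.068 and 0.058, where 7300 of 19450 genes passed and 17.7% were higher in iWAT adipocytes. Within lane 2, 9 passed, where 9923 of 19830 genes did and 25.2% were higher in iWAT adipocytes. With lane as a covariate, 9 passed, where 13018 of 19623 genes did, and Kdr was at 2.19 ± 0.27 (SE).

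The receptors were next set against endothelial RNA of the same library, which removes depth and scaling. Each gene's RPKM was divided by the geometric mean RPKM of 6 endothelial markers: Cdh5 (VE-cadherin), Pecam1, Emcn, Cldn5, Esam and Egfl7. The 6 markers did not move as one in BAT, where Cldn5 differed 7.84-fold between the lowest and the highest library and Pecam1 1.38-fold. Of the whole list of 13 endothelial markers, 11 were higher in iWAT than in eWAT adipocytes and none was lower. Against BAT, 8 were higher and 2 lower in iWAT adipocytes (11 and 0 without TMM scaling), and 1 was higher and 10 were lower in eWAT adipocytes (2 and 5 without it).

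Relative to these markers, receptor mixtures differed between the preparations. Kdr was at 0.651 to 0.786 of the marker mean in iWAT adipocytes (median 0.735), 0.499 to 0.624 in eWAT adipocytes (median 0.541) and 0.901 to 1.75 in BAT (median 1.32). The 3 groups did not overlap. The log2 ratio of iWAT adipocytes exceeded that of eWAT adipocytes by 0.41 ± 0.06 (SE) and was -0.87 ± 0.15 from that of BAT, and eWAT adipocytes were -1.27 ± 0.15 from BAT. Each had an adjusted p of 0.00354 by exact permutation over 18 ratios, from the smallest p that 6 against 6 samples allow (0.00216). Egfl7, one of the 6 markers, was not tested alone as denominator. Its edgeR log2 fold change for iWAT over eWAT adipocytes was 2.13 ± 0.21 (SE), beside 2.11 ± 0.25 for Kdr. Over 18 libraries the log2 ratio of Kdr had an SD of 0.217 to Egfl7, against 0.594 to Cdh5. The separation of the groups by Kdr thus depends on the markers used.

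Flt1 gave another order, with 0.342 to 0.406 of the marker mean in iWAT adipocytes (median 0.378), 0.421 to 0.518 in eWAT adipocytes (median 0.487) and 0.488 to 0.742 in BAT (median 0.596). Here eWAT adipocytes exceeded iWAT adipocytes without overlap, the reverse of Kdr. The log2 difference was -0.32 ± 0.06 (SE) for iWAT minus eWAT adipocytes and -0.67 ± 0.11 for iWAT adipocytes minus BAT (exact permutation, adjusted p = 0.00354 for both), and -0.35 ± 0.12 for eWAT adipocytes minus BAT (0.0208). As a share of the receptor sum, Kdr made up 38.6 ± 3.13% in iWAT adipocytes, 29.8 ± 1.90% in eWAT adipocytes, against 43.5 ± 4.28% in BAT, and Flt1 20.1 ± 0.933%, 25.7 ± 2.23% and 19.7 ± 0.928% (SD, n = 6).

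Flt4 and Tie1 did not pass between the white depots relative to the markers, with log2 differences of 0.01 ± 0.10 and -0.05 ± 0.07 (SE, exact permutation, adjusted p = 0.955 and 0.486). Tek did so narrowly (-0.14 ± 0.06, 0.0487), and that call was lost when any 1 of libraries 2, 3 and 16 of iWAT adipocytes or 1, 2, 3, 5 and 16 of eWAT adipocytes was left out (adjusted p 0.0511 to 0.0731), and with Pecam1 alone as denominator (-0.04, 0.541). All 5 receptors were lower relative to the markers in iWAT adipocytes than in BAT (log2 differences of -0.87 to -0.43) and in eWAT adipocytes than in BAT (-1.27 to -0.35), at adjusted p of 0.00354 to 0.0208 by exact permutation. With Cdh5 or Pecam1 alone as denominator these 10 differences kept their direction and passed. The markers Emcn, Cldn5, Esam and Egfl7 were not tried alone. The mean RPKM of Egfl7 was similar for iWAT adipocytes (14.4) and BAT (14.2). All 5 receptors had the higher mean RPKM in iWAT adipocytes, with Flt1 at 12.1 against 8.70 for BAT. By these means no receptor was lower relative to Egfl7 in iWAT adipocytes than in BAT. In eWAT adipocytes mean Egfl7 was 3.29 RPKM, against 14.2 in BAT. Kdr was at 5.26 against 19.2 and Flt1 at 4.53 against 8.70. By these means all 5 receptors were higher relative to Egfl7 in eWAT adipocytes than in BAT. The direction in both comparisons with BAT thus depends on the marker. Within lanes 1 and 2, the difference between iWAT and eWAT adipocytes was 0.43 and 0.40 for Kdr, -0.43 and -0.23 for Flt1 and 0.18 and -0.17 for Flt4.

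Angpt2, set against the same markers, was the most uneven of the 6 genes. The lowest, median and highest ratios were 0.108, 0.119 and 0.149 in iWAT adipocytes, 0.369, 0.442 and 0.765 in eWAT adipocytes, and 0.0209, 0.0336 and 0.0675 in BAT. The 3 groups did not overlap, and the narrow range in iWAT adipocytes contrasts with the 3.41-fold range of the Angpt2 level itself there. The log2 difference was -1.93 ± 0.17 (SE) for iWAT minus eWAT adipocytes, 1.73 ± 0.27 for iWAT adipocytes minus BAT and 3.67 ± 0.30 for eWAT adipocytes minus BAT (exact permutation, adjusted p = 0.00354 for each). Within lanes 1 and 2 the first was -1.68 and -2.26.

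**Figure D3:**
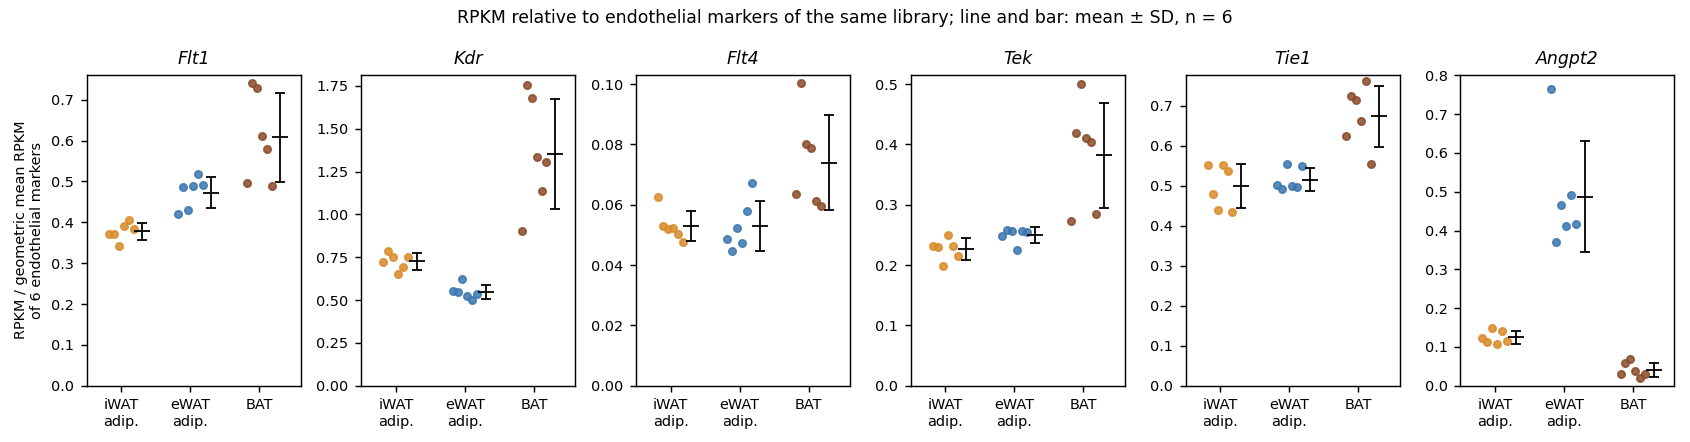
RPKM of each receptor and of Angpt2 divided by the geometric mean RPKM of 6 endothelial markers in the same library, for 18 libraries, with mean and SD (n = 6) and axes starting at 0. Kdr stands lowest in eWAT adipocytes and Flt1 lowest in iWAT adipocytes, and Angpt2 separates the 3 groups with no overlap.

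The balance of the 2 angiopoietins followed from their levels. The ratio of Angpt2 to Angpt1 was 0.513 to 3.19 in iWAT adipocytes (median 1.43), 2.78 to 10.2 in eWAT adipocytes (median 5.21) and 0.174 to 0.460 in BAT (median 0.317). All BAT libraries lay below 1 and below all white adipocyte libraries. The white depots overlapped through library 5 of iWAT and library 4 of eWAT adipocytes. Log2 differences were -1.89 ± 0.45 (SE) for iWAT minus eWAT adipocytes, 2.23 ± 0.40 for iWAT adipocytes minus BAT and 4.13 ± 0.34 for eWAT adipocytes minus BAT, with adjusted p of 0.0108, 0.00812 and 0.00812 by exact permutation over 15 ratios. Within lanes 1 and 2 the first was -1.66 and -2.16.

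Vegfa and Vegfb kept a similar ratio, with medians of 1.29, 1.44 and 1.25 in iWAT adipocytes, eWAT adipocytes and BAT. The log2 differences were -0.23 ± 0.16, 0.02 ± 0.15 and 0.25 ± 0.12 (SE) in the 3 comparisons, and none passed (exact permutation, adjusted p = 0.289, 0.879 and 0.142). The last one passed when the rows of a symbol were summed (0.46, 0.0186) or without library 4 of eWAT adipocytes (0.32, 0.0365). Vegfa to Vegfc was higher in BAT, with 58.4 to 94.2 there against 12.6 to 47.4 in iWAT adipocytes and 20.7 to 45.1 in eWAT adipocytes and no overlap with either (log2 differences of -1.71 ± 0.36 and -1.39 ± 0.18, adjusted p = 0.00812 for both).

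The ligand to receptor ratio Vegfa to Kdr was lowest in iWAT adipocytes. It ran from 0.810 to 2.31 there (median 1.56), from 1.93 to 6.93 in eWAT adipocytes (median 3.55) and from 2.30 to 3.65 in BAT (median 2.92). Libraries 1, 4 and 5 of iWAT adipocytes, those richest in endothelial RNA, had the 3 lowest values of all 18 libraries. The log2 difference was -1.36 ± 0.38 (SE) for iWAT minus eWAT adipocytes (exact permutation, adjusted p = 0.0186), -1.06 ± 0.30 for iWAT adipocytes minus BAT (0.0108) and 0.29 ± 0.27 for eWAT adipocytes minus BAT (0.49). Without libraries 1 and 5 the first was -0.97 (adjusted p = 0.0714). Angpt1 to Tek, the other pair of ligand and receptor, differed in none of the 3 comparisons by this test, with log2 differences of 0.10 ± 0.43, 0.22 ± 0.36 and 0.12 ± 0.26 (adjusted p = 0.856, 0.712 and 0.734).

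**Figure D4:**
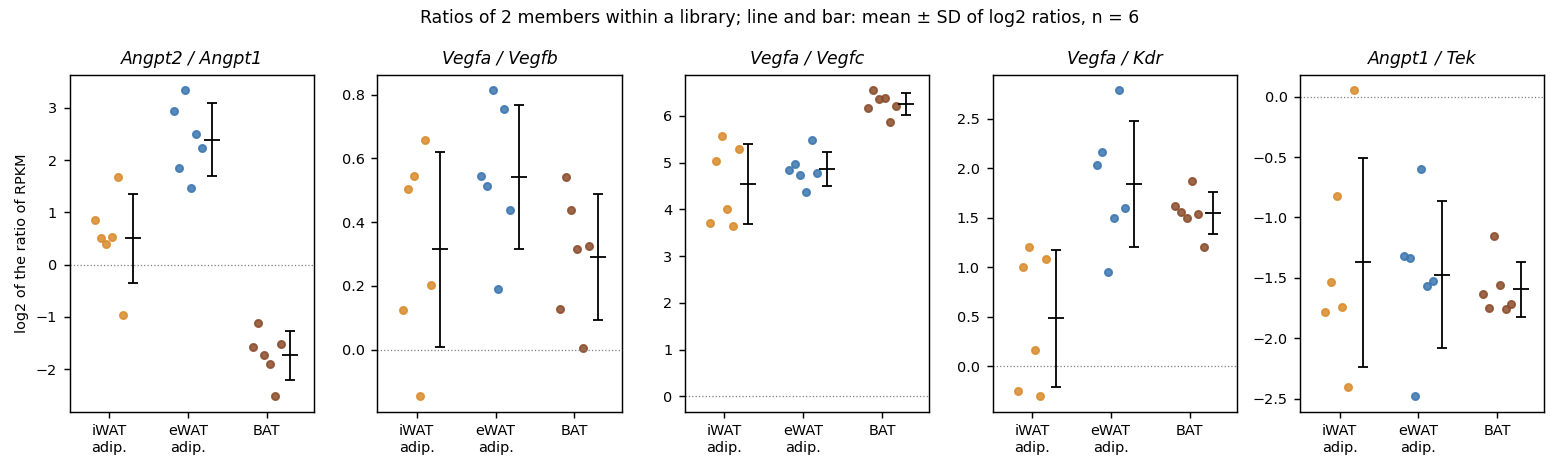
Log2 of the ratio of RPKM of 2 genes in the same library, for 5 gene pairs and 18 libraries, with mean and SD of 6 libraries and a dotted line at equal RPKM. Angpt2 over Angpt1 lies below the line in all BAT libraries and above it in all eWAT adipocyte libraries, and Vegfa over Kdr is lowest in iWAT adipocytes.

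For each gene, the 3 genes with the most parallel RPKM over all 18 libraries were found by the SD of the log2 ratio among 14156 genes with a mean of at least 1 RPKM. The libraries share tissue, depth and lane, so this is a description of level patterns. Nearest to Vegfa were Mmachc (SD 0.214), LOC100504757 and Poldip2, and nearest to Vegfb were Cisd1 (0.135), which encodes an iron-sulfur protein of the outer mitochondrial membrane, LOC100504436 and Dnajc15. Vegfc was nearest to the thrombin receptor F2r (0.200), AK044153 and Tspan13. Those of Angpt1 were Adh1 (0.265), Zdhhc2 and 5430421B17, and those of Angpt2 were Rell1 (0.322), the collagen gene Col1a2 and 1810011H11Rik.

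Among the 3 nearest genes of a receptor, another receptor stood for Flt1, Tek and Flt4. Flt1 was nearest to Tspan7 (0.144), Tek (0.153) and Emcn (0.158), Tek to Fgd5 (0.143), Filip1 and Flt1, and Tie1 to Notch4 (0.135), Fgd5 and Ltbp4. Flt4 was nearest to Dysf (0.160), Bcam and Flt1. Kdr stood further off, with Ephb4 (0.167), Clec14a and Btnl9 nearest and an SD of 0.445 to Flt1 and 0.364 to Tek. The SD of Vegfa was 0.258 to Vegfb but 0.748 to Flt1 and 0.788 to Kdr.

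Lists of other genes of these pathways were counted by the same edgeR test. Their counts stand beside the 68.6%, 75.3% and 82.5% of all genes that passed between the white depots, between iWAT adipocytes and BAT and between eWAT adipocytes and BAT, so a list in which most genes passed is near that background, and list medians (log2 fold change) stand beside medians over all genes of 0.0, 0.01 and -0.02 in this order. Of 3 other ligands, Angpt4 had 2 to 9 reads per library and was not tested. Figf, which encodes VEGF-D, was at 6.79 ± 1.26 RPKM in iWAT adipocytes, 3.58 ± 1.20 in eWAT adipocytes, against 0.952 ± 0.152 in BAT (SD, n = 6), with no overlap between any 2 groups, and log2 fold changes of 0.94 ± 0.22, 2.24 ± 0.16 and 1.32 ± 0.22 (SE, adjusted p = 0.002, 3.8e-09 and 4.9e-05). Pgf, placental growth factor, a ligand of VEGFR1, was at 5.79 ± 4.84, 2.86 ± 0.980 and 0.439 ± 0.170 RPKM, higher in both white preparations than in BAT (log2 3.06 ± 0.47 and 2.09 ± 0.26, adjusted p = 2.5e-05 and 2.1e-06), while between the white depots it had 1.01 ± 0.44 (adjusted p = 0.055). Within lane 1 the Figf difference between the white depots was 0.74 (adjusted p = 0.091). Figf and Pgf had their lowest levels in BAT, where Vegfa and Vegfb had their highest.

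Among 7 co-receptors and receptor partners, 3 were higher and 3 lower in iWAT than in eWAT adipocytes, and the median log2 fold changes of the list were 0.08, 0.30 and 0.14 in the 3 comparisons. Ptprb, the endothelial phosphatase that acts on Tie2, was higher in iWAT adipocytes (20.3 ± 8.54 against 5.50 ± 1.62 RPKM, log2 1.88 ± 0.27, adjusted p = 4.4e-05), as was Efnb2, the ephrin ligand of arterial endothelium that promotes VEGF receptor uptake (5.93 ± 2.62 against 1.96 ± 0.474, 1.59 ± 0.25, 0.00011). The integrin gene Itgb3 was lower there (0.254 ± 0.0784 against 1.07 ± 0.346, -2.07 ± 0.25, 1.1e-05), beside the macrophage markers, of which 6 of 6 were lower in iWAT than in eWAT adipocytes; their part in this result was not tested. Against BAT, 2 were higher and 1 lower in iWAT adipocytes and 3 were higher and 3 lower in eWAT adipocytes, and without TMM scaling the counts were 7 and 0, and 5 and 1. Hspg2 (perlecan) was 1.24 ± 0.17 higher in iWAT adipocytes than in BAT on the log2 scale (5.7e-06), and Itgav 1.10 ± 0.09 (1.6e-08), while Nrp2, a co-receptor for VEGF-C, was lower (-0.40 ± 0.17, 0.041) but turned to 0.46 without TMM scaling (0.0428). The Nrp2 call was also lost without any 1 of libraries 2, 3 and 16 of iWAT adipocytes or 2, 5 and 17 of BAT (adjusted p 0.0641 to 0.0885). Against BAT, eWAT adipocytes were higher in Itgav (2.35 ± 0.10, 5.8e-12) and Itgb3 (2.24 ± 0.25, 6.8e-07) and lower in Ptprb (-1.55 ± 0.17, 4.6e-07).

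Of 13 signal transducers, 12 were tested, and 7 were higher and 4 lower in iWAT than in eWAT adipocytes, with medians of 0.76, 0.50 and -0.04. Prkcb, a protein kinase C, was lower there (2.29 ± 0.445 against 18.01 ± 6.16 RPKM, log2 -2.97 ± 0.21, adjusted p = 3e-07), as was Dok2, an adaptor that Tie2 recruits and that blood cells also express (7.83 ± 2.07 against 23.8 ± 5.51, -1.60 ± 0.18, 5.7e-06). Grb14, an adaptor of receptor kinases, was higher (12.5 ± 2.62 against 3.56 ± 1.54, 1.82 ± 0.28, 8.1e-05). Prkcb, Dok2 and Src were highest in eWAT adipocytes and lowest in BAT, the order of the macrophage markers, whose part was not tested. Prkcb and Dok2 exceeded BAT by 2.85 ± 0.15 and 3.50 ± 0.17 in iWAT adipocytes and by 5.85 ± 0.26 and 5.13 ± 0.16 in eWAT adipocytes (log2, SE, adjusted p = 4e-13 to 1.5e-10), and Src by 1.96 ± 0.20 and 2.79 ± 0.21 (adjusted p = 2e-07 and 5.1e-09). In all, 8 were higher and 1 lower in iWAT adipocytes than in BAT and 5 higher and 6 lower in eWAT adipocytes, and without TMM scaling 11 and 0, and 7 and 3.

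Oxygen sensing genes and other regulators of Vegfa held 11 genes, of which Hif3a was too low to test. In iWAT against eWAT adipocytes 7 were higher and none lower (6 and 1 without TMM scaling), and the medians in the 3 comparisons were 0.46, -0.63 and -1.20. Those with the largest difference were Ppargc1a, a coactivator of mitochondrial genes that can induce Vegfa (0.821 ± 0.162 against 0.257 ± 0.106 RPKM, log2 1.70 ± 0.24, adjusted p = 4.6e-05), Epas1, which encodes HIF-2α (51.9 ± 13.1 against 19.5 ± 4.62, 1.42 ± 0.18, 1.9e-05), and Vhl, which marks HIF proteins for breakdown (13.9 ± 2.21 against 7.76 ± 1.99, 0.85 ± 0.16, 0.00047). Against BAT, Ppargc1a (6.62 ± 1.27 RPKM in BAT), Egln1, a prolyl hydroxylase that senses oxygen (71.1 ± 9.80), and Esrra, the nuclear receptor partner of Ppargc1a (14.8 ± 3.08), were lower in the white adipocytes. Their log2 fold changes were -3.62 ± 0.16, -2.50 ± 0.09 and -2.46 ± 0.10 for iWAT adipocytes and -5.30 ± 0.23, -3.16 ± 0.10 and -2.55 ± 0.11 for eWAT adipocytes (SE, adjusted p = 2.9e-13 to 2e-11). These 3 genes shared the order of Vegfa and Vegfb in being highest in BAT. Hif1a, of the same list, was lowest there, at 8.81 to 13.7 RPKM. It was at 27.8 to 40.7 RPKM in iWAT adipocytes and 21.7 to 37.5 in eWAT adipocytes. The part of any of these genes in the Vegfa levels was not tested. Counts against BAT were 3 higher and 6 lower in iWAT adipocytes and 1 higher and 7 lower in eWAT adipocytes, and 5 and 3, and 5 and 5, without TMM scaling.

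Genes induced by hypoxia went both ways. Of 8, 4 were higher and 4 lower in iWAT than in eWAT adipocytes, with medians of -0.05, 0.46 and -0.75. Adm (adrenomedullin, a vasodilator peptide) was higher in iWAT adipocytes (21.5 ± 5.41 against 6.09 ± 1.73 RPKM, log2 1.82 ± 0.21, adjusted p = 7.2e-06), whereas the glucose transporter gene Slc2a1 (7.23 ± 1.45 against 19.1 ± 3.06, -1.39 ± 0.13, 1.5e-06) and Car9 (carbonic anhydrase, 0.414 ± 0.0750 against 1.59 ± 0.378, -1.93 ± 0.17, 1.1e-06) were lower. Against BAT, 4 were higher and 3 lower in iWAT adipocytes and 3 higher and 5 lower in eWAT adipocytes (5 and 2, and 3 and 2, without TMM scaling). Adm exceeded BAT by 2.85 ± 0.20 in iWAT adipocytes (2.7e-09) and Slc2a1 by 3.07 ± 0.16 in eWAT adipocytes (6.7e-11). Pdk1, a kinase that limits pyruvate oxidation in mitochondria, was lower in both white preparations (-2.12 ± 0.11 and -1.55 ± 0.11, adjusted p = 7.4e-11 and 5.2e-09). Car9 had 3 to 5 reads per library in BAT, so its fitted values against BAT rest on very few reads.

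Tip cell, Notch and apelin genes, which act downstream of or beside VEGF in sprouting, followed the receptors between the white depots, with 9 of 11 higher and 1 lower in iWAT than in eWAT adipocytes (8 and 1 without TMM scaling), and medians of 1.59, 0.30 and -0.90. Apln (apelin) was at 8.20 ± 3.75 against 1.36 ± 0.390 RPKM (log2 2.59 ± 0.29, adjusted p = 6.3e-06), Notch4 at 5.64 ± 2.602 against 1.53 ± 0.414 (1.88 ± 0.28, 6.9e-05) and the Notch ligand gene Dll4 at 14.6 ± 7.22 against 4.18 ± 1.17 (1.80 ± 0.29, 0.00011). Endothelial marker RNA moved with these genes, and its part was not tested. Against BAT, 5 were higher and none lower in iWAT adipocytes (10 and 0 without TMM scaling), among them Apln (1.80 ± 0.26, 1.3e-05) and Jag1 (1.14 ± 0.09, 1.5e-08), and Esm1, which had 0 to 5 reads per library in BAT. In eWAT adipocytes 2 of the 10 tested were higher and 7 lower than in BAT, with Hey1 at -2.09 ± 0.20 (1.2e-07), Notch4 at -1.77 ± 0.17 (1.1e-07) and Nrarp at -1.47 ± 0.34 (0.00084), but 3 and 2 without TMM scaling, where Nrarp did not pass (-0.58, 0.113).

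Among angiogenesis inhibitors, the thrombospondins stood far above BAT in the white preparations. Of 7, 6 were higher and none lower in iWAT adipocytes than in BAT, 5 higher and 2 lower in eWAT adipocytes, and 6 higher and none lower in iWAT than in eWAT adipocytes; without TMM scaling these were 7 and 0, 5 and 1, and 6 and 0. The medians were 1.21 between the white depots and 2.89 and 1.95 against BAT. Thbs1 (thrombospondin-1) measured 91.9 ± 31.7 RPKM in iWAT adipocytes, 71.3 ± 26.7 in eWAT adipocytes, against 3.004 ± 2.22 in BAT (SD, n = 6), with log2 fold changes over BAT of 4.33 ± 0.42 and 3.98 ± 0.43 (SE, edgeR adjusted p = 1.6e-07 and 4.3e-07). Thbs2 exceeded BAT by 3.55 ± 0.12 and 2.33 ± 0.16 (1.9e-12 and 2.7e-09) and Adamts1, a protease that binds VEGF-A, by 3.21 ± 0.21 and 2.36 ± 0.23 (1.7e-09 and 1.1e-07). Between the white depots the largest differences were those of Timp3 (46.5 ± 21.4 against 14.8 ± 3.78 RPKM, log2 1.64 ± 0.27, adjusted p = 0.00015), which blocks binding of VEGF-A to VEGFR2, the endothelial Vash1 (1.48 ± 0.26, 0.00023) and Thbs2 (1.25 ± 0.15, 9.2e-06). The 2 inhibitors lower in eWAT adipocytes than in BAT were Timp3 (-1.44 ± 0.17, 1.1e-06) and Vash1 (-0.88 ± 0.16, 9.6e-05).

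**Figure D5:**
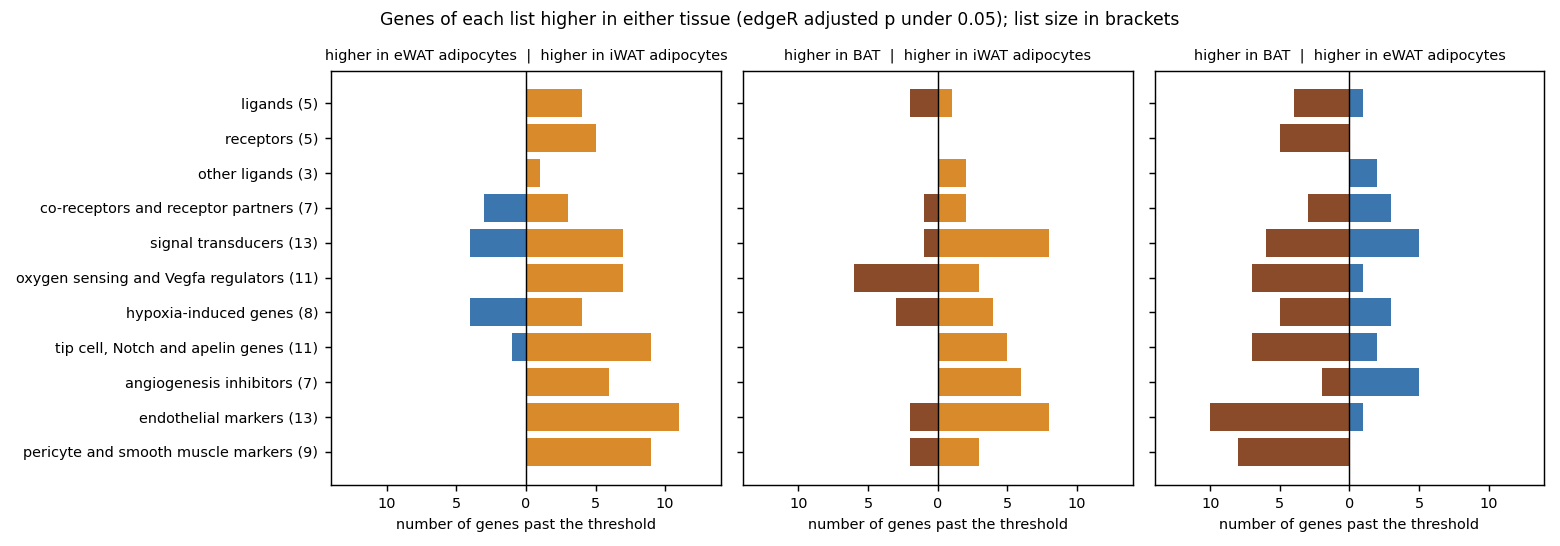
Number of genes of each list past an edgeR adjusted p of 0.05 in the 3 comparisons with TMM scaling, to the left or the right by the preparation in which they were higher; list sizes are in brackets. All 5 receptors and 9 of 9 pericyte markers are higher in iWAT than in eWAT adipocytes, and no receptor is counted between iWAT adipocytes and BAT.

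Other cell type markers complete the view of the preparations. Of 7 adipocyte markers, 7 were higher in iWAT than in eWAT adipocytes, where 34.1% of all genes were. Their median log2 fold change was 1.38, beside 0.75 for Vegfa and 0.94 for Vegfb. The part of adipocyte RNA in these 2 results was not tested. Against BAT, 5 adipocyte markers were higher and 1 lower in iWAT adipocytes, and 2 higher and 3 lower in eWAT adipocytes (7 and 0, and 4 and 1, without TMM scaling). Of 9 pericyte and smooth muscle markers, which include the source of much Angpt1 in vessels, 9 were higher in iWAT than in eWAT adipocytes, 8 were lower and none higher in eWAT adipocytes than in BAT (5 and 1 without TMM scaling), and 3 were higher and 2 lower in iWAT adipocytes than in BAT (6 and 1 without TMM scaling). Their summed RPKM was 100.3 to 300.3 in iWAT adipocytes, 32.2 to 73.3 in eWAT adipocytes, against 117.5 to 168.5 in BAT. Among iWAT adipocytes, library 16 had the lowest sum (100.3) and the highest Angpt1 (4.08 RPKM). Library 5 had the highest sum there (300.3), with Angpt1 at 2.24 RPKM. Among eWAT adipocytes, library 4 had the highest sum (73.3) and the highest Angpt1 (2.04 RPKM). The part of pericyte RNA in the Angpt1 result was not tested. Fibroblast and progenitor markers summed to 34.2 to 69.7, 35.6 to 57.5 and 13.5 to 21.9 RPKM and skeletal muscle markers to 3.84 to 16.1, 1.15 to 4.83 and 1.22 to 98.6. Mesothelial markers (at most 9.91 RPKM) and B cell markers (at most 2.17 RPKM) were low in every library, with Msln and Wt1 at or under 3 reads throughout iWAT adipocytes and BAT.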

How the data were processed

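RNA from 18 samples was sequenced on an Illumina HiSeq instrument. The submitters' processing notes list cutadapt 1.16, HISAT2 2.1.0 and mm9. The counting program, its annotation and its strand setting are not given in the sources used here. The deposited files give, for 53445 transcript rows, whole-number read counts that the authors did not normalize, and RPKM values that the authors computed from them by transcript length and library. The members and lists were chosen with earlier results of these data known.

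Counts were tested in R 4.3.3 with edgeR 4.0.16 (quasi-likelihood test, TMM scaling, 12 libraries per comparison, mean count of at least 10) and Benjamini-Hochberg adjustment over all genes at 0.05, after the script was tested on simulated data. The SE of a fold change is the log2 fold change divided by the square root of the F statistic. Ratios within a library used deposited RPKM and a two-sided exact permutation test of 6 against 6 log2 ratios (924 permutations) in Python 3.11.15 with scipy 1.17.1. Alternatives were DESeq2 1.42.0, limma 3.58.1 on log2(RPKM + 0.1), no TMM scaling, no count filter (at least 1 read), rows of a symbol summed, all 18 samples in 1 fit, lanes, and libraries left out. From each list the text names up to 3 called genes per comparison with the largest change. RPKM levels are given as mean ± SD over 6 libraries. Promoter windows came from the mm9 genome.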

Additional observations from a re-analysis of the deposited data

Results flagged for a closer look

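In eWAT adipocytes, library 4 stood apart from the other 5 libraries for 2 genes. Its Angpt1 level was 2.04 RPKM, where the others ran from 0.531 to 0.908, a gap of 0.75 of the whole range. Its Vegfc level was 0.983 RPKM, where the others ran from 0.494 to 0.670, a gap of 0.64 of the range. Each gap exceeded Dixon's 95% critical value for 6 samples, which chance exceeds in about 1 of 20 groups, and 30 groups of 6 were examined. The same library had the highest summed endothelial markers of the eWAT adipocytes, at 205.8 RPKM, and the part of this in both values was not tested.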

How the results depend on the processing

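The count of the 10 genes that differed was 9 between iWAT and eWAT adipocytes and 10 between eWAT adipocytes and BAT whichever single library was left out, and 3 to 4 between iWAT adipocytes and BAT. That last count was 3 as reported, 10 without TMM scaling (8 higher and 2 lower in iWAT adipocytes) and 6 with limma. It was also 6 without libraries 1 and 5 of iWAT adipocytes, a choice made after the data were seen. Of all genes, 16757 of 19745 passed without TMM scaling, 17154 of 21613 with limma and 14517 of 19643 without those libraries. Endothelial ratios that differed numbered 3 to 4, 6 and 6 with a library left out, and ligand ratios 2, 3 and 2 to 3. Without libraries 1 and 5, 1 ligand ratio differed between the white depots.

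Library numbers are shared between groups. Correlations of same-numbered deviations over 19941 genes ran from -0.233 to 0.372 for iWAT with eWAT adipocytes, -0.141 to 0.098 for iWAT adipocytes with BAT and -0.0352 to 0.0645 for eWAT adipocytes with BAT, so a pairing was not shown. With the number as a replicate block, edgeR called 9, 3 and 10 of the 10 genes. In these fits 12836 of 19623, 12555 of 19745 and 15149 of 20076 genes were called. Nrp2 no longer passed between iWAT adipocytes and BAT (adjusted p = 0.0885, and 0.0976 without the count filter). A paired sign-flip test called 0 of 6 endothelial and 0 of 5 ligand ratios between the white depots. Its p cannot go below 0.03125, so several ratios must reach that floor before any passes after adjustment. Flt1, Kdr and Angpt2 over the markers had an adjusted p of 0.0625 by it, although their values did not overlap between the depots. The test therefore cannot decide these ratios. Ratios were not paired against BAT, with 4 shared numbers.

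Some directions turned with the setting, and not all turned values were small. Without TMM scaling Angpt1, Flt1, Kdr, Tek and Nrp2 passed as higher in iWAT adipocytes than in BAT (edgeR adjusted p 9.87e-05 to 0.0428). With limma Angpt1 did so too (adjusted p = 0.00446). For iWAT adipocytes over BAT, the log2 fold change without TMM scaling and with limma was 0.84 and 0.53 for Angpt1, 0.73 and 0.38 for Flt1, 0.50 and 0.18 for Kdr, 0.69 and 0.32 for Tek, and 0.46 and 0.17 for Nrp2. Without the count filter Angpt1 was at 0.0817. Without libraries 1 and 5 it was 0.0605 for Angpt1, -0.051 for Vegfc, -0.33 for Flt4 and -0.30 for Tie1, and the log2 Vegfa to Vegfb difference was -0.015. For eWAT adipocytes over BAT, Vegfc was at 0.10 without TMM scaling. Between the white depots, Flt4 over endothelial markers was -0.11 with Cdh5 alone and -0.037 without libraries 1 and 5, Tie1 was 0.0456 with Pecam1 alone, and Vegfa to Vegfc was 0.11 without libraries 1 and 5. With single libraries left out, iWAT adipocytes over BAT ran from -0.21 to 0.0548 for Angpt1, -0.11 to 0.17 for Flt4 and -0.0779 to 0.23 for Tie1. Ratio differences ran from -0.0425 to 0.0775 for Flt4 over markers and -0.18 to 0.31 for Angpt1 to Tek between the white depots, and against BAT from -0.0452 to 0.12 for Vegfa to Vegfb (iWAT adipocytes) and from -0.0608 to 0.43 and -0.0524 to 0.32 for Angpt1 to Tek (iWAT and eWAT adipocytes). The turns without TMM scaling go with the shift of that fit, whose median over all genes was 0.87 for iWAT adipocytes over BAT and 0.89 for eWAT adipocytes over BAT; the cause of the others was not tested. Angpt2 in BAT (37 to 106 reads) and Vegfc (41 to 203 reads) were the members with the fewest reads.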
